A study of Kryptolebias marmoratus with 5 samples.

Results

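The tail mutants *shorttail* (*stl*) and *balltail* (*btl*) of the mangrove killifish *Kryptolebias marmoratus*, a self-fertilizing fish, were compared directly with each other by RNA-seq. The comparison used 2 of the 5 libraries of the series, 1 of *stl* and 1 of *btl*, and all genes with a mean of no less than 2 CPM (reads of a gene scaled to a common library size) over the 5 libraries, which were 15362 of 22090. The *stl* library came from homozygous mutants of the line R109, which the study assigned to a missense allele of *noto*, and the *btl* library from homozygous mutants of the line R228, assigned to a missense allele of *msgn1*. Both lines were made with the mutagen ENU, and both phenotypes are recessive. The libraries named *stl*-sibling and *btl*-sibling held the phenotypically normal embryos of each line, which can include carriers, and their difference was used only as the level of the difference between the lines. WT was the *Hon9* strain. No embryo was treated with any agent. Each library was made from a pool of whole embryos, between 20 and 25 according to the labels. The labels give stage 17 and say that the pools may contain embryos of the stages before and after it. The methods of the study give the same range of stages, whereas its results name a later one. In pooled whole embryos, fewer cells of a type and less RNA per cell cannot be told apart. The labels give 1 library per group, so no difference could be checked against replicates, and p-values are left out. The 95% intervals of a fold difference are exact (Clopper-Pearson) and cover counting error only. They compare these libraries, not the conditions.

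The vertebrate tail grows from the tail bud, whose mesoderm progenitors become either axial mesoderm, which forms the notochord, or paraxial mesoderm, which forms the somites. Noto is a homeodomain factor of the axial progenitors that in zebrafish keeps notochord precursors from taking other fates. Mesogenin 1, the product of *msgn1*, is a basic helix-loop-helix factor that in zebrafish and mouse moves progenitors out of the tail bud into the presomitic mesoderm. A direct comparison of the mutants lists the genes that stand apart between 1 library of an axial-factor mutant and 1 of a paraxial-factor mutant. Whether the mutated factor accounts for each difference was not tested.

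Total estimated counts ranged from 9147625 in *btl*, the shallowest library, to 12220249 in *btl*-sibling, and were scaled with TMM factors between 0.914 and 1.05. The gene just inside the minimum, *LOC108237161*, had a mean of 2.001 CPM, and *LOC108249108*, just outside it, had 1.998 CPM. Differences are given as log2 ratios of *stl* over *btl* after adding 0.5 CPM to both, which understates the difference of low genes, so that a positive value is higher in *stl*. Folds carry no added CPM.

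Between the mutants, 672 genes were at least 2-fold higher in *stl* (4.37% of the genes tested) and 908 at least 2-fold lower (5.91%). Between the sibling libraries of the same lines, 165 genes were at least 2-fold higher (1.07%) and 160 at least 2-fold lower (1.04%). A gene was called past the line difference when it was at least 2-fold apart between the mutants and was still so, in the same direction, after the log2 ratio of the siblings was taken off. By this rule 336 genes were higher in *stl* (2.19%) and 567 lower (3.69%), 903 in all (5.88%). The median log2 ratio of all genes was 0.01 between the mutants and -0.00 between the siblings. The sibling libraries differed at least 2-fold in the same direction in 201 of the 1580 genes called between the mutants (1.31% of all genes tested) and in the opposite direction in 7 (0.0456%).

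The balance of higher and lower genes followed the scaling. Of the genes called, 42.5% were higher in *stl* with TMM factors, 63.3% with library size alone and 88.9% with TPM, and these scalings moved the median of all genes to 0.18 and 0.46. Read relative to that median, the genes at least 2-fold higher and lower were 638 and 945 with library size alone and 446 and 833 with TPM. On that basis no list median and no named gene changed its sign under TPM, although 88 of the 91 named genes were at least 2-fold apart to begin with. Library size and DESeq2 size factors differ from TMM only by a constant per library. Reading relative to the median takes this off almost wholly, so neither could serve as a check of the sign. A stricter rule, chosen after seeing the data, asked that the difference of *stl* and *btl* exceed the whole range of WT, *stl*-sibling and *btl*-sibling by 2-fold. It left 131 genes higher in *stl* (0.853%) and 188 lower (1.22%), and is called the range of the normal libraries in what follows.

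Each mutant library was also set beside its own sibling, a description that uses the same 4 libraries. *stl* was at least 2-fold above *stl*-sibling in 0.215% of all genes tested and below it in 0.996%, and *btl* was above *btl*-sibling in 4.33% and below it in 3.27%. Of the 336 genes past the line difference and higher in *stl*, 208 were at least 2-fold lower in *btl* than in *btl*-sibling while *stl* lay within 2-fold of *stl*-sibling, and 14 were at least 2-fold higher in *stl* while *btl* lay within 2-fold. Of the 567 lower in *stl*, 396 were at least 2-fold higher in *btl* with *stl* within 2-fold, and 16 at least 2-fold lower in *stl* with *btl* within 2-fold. Neither mutant was 2-fold away from its sibling in 100 and 139 of them. Of the 567, 300 lay in the lowest decile of coding length. With the trend over length taken off, described further on, 214 genes were lower in *stl* past the line difference.

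**Figure D1:**
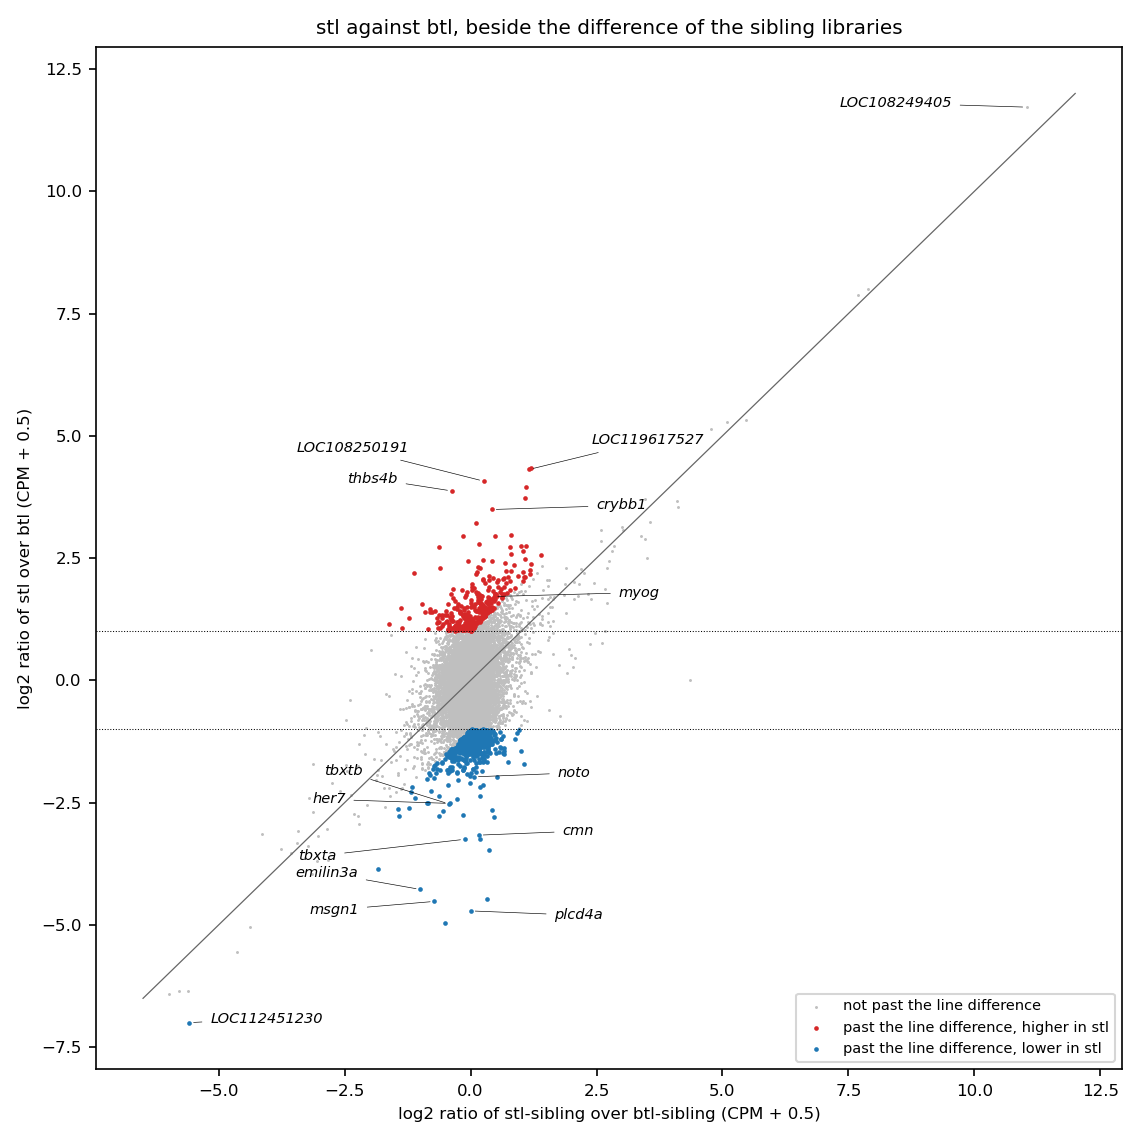
Each point is 1 of the 15362 genes, with the log2 ratio of *stl*-sibling over *btl*-sibling on the horizontal axis and that of *stl* over *btl* on the vertical axis. Red (336) and blue (567) points are past the line difference, dotted lines mark 2-fold and the diagonal marks an equal difference in both. *LOC108249405*, with the highest value between the mutants (11.72), lies near the diagonal, whereas *msgn1* and *tbxta* lie far below it.

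The mutated genes and the axial T-box genes were all lower in *stl* than in *btl*. *noto* was at 3.71 CPM in *stl* and 16.0 in *btl*, with 8.03 in WT and 7.56 and 7.15 in their siblings, which here and in what follows are given in the order *stl*-sibling and *btl*-sibling. The mutants lay on opposite sides of the normal libraries, and *stl* was 4.32-fold lower than *btl* (interval 3.05 to 6.21), a log2 ratio of -1.97 against 0.07 between the siblings. *tbxta* (*ntl*), a T-box factor needed for notochord and tail formation, lies on linkage group 5 of ASM164957v2 from 22195754 to 22198644. It was at 6.75 CPM in *stl* and 68.4 in *btl*, with 21.7 in WT and 22.1 and 24.0 in their siblings. Here too the mutants stood on opposite sides of the normal libraries, 10.1-fold apart (interval 8.01 to 12.97), with log2 ratios of -3.25 between mutants and -0.12 between siblings.

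Its paralogue *tbxtb* (linkage group 22, 24235402 to 24239141) was at 9.36 CPM in *stl* and 56.3 in *btl*, with 10.3 in WT and 9.69 and 13.2 in their siblings. Only *btl* stood apart for *tbxtb*, and *stl* was 6.01-fold lower than *btl* (interval 4.88 to 7.46). These 3 genes were the members past the line difference among the 9 axial mesoderm regulators tested, beside 3.69% of all genes lower in *stl*. All 3 were also past the range of the normal libraries. The median of the list was 0.13, beside 0.01 for all genes. *foxa2*, a forkhead factor of floor plate and notochord precursors, had a log2 ratio of -0.23. *sox9a*, a factor of cartilage and notochord sheath, was 2.17-fold higher in *stl*, with a log2 ratio of 1.1, and did not pass the line difference. Reads of both alleles are counted together in these values, and allele shares were not analysed here.

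*msgn1* showed the largest difference of the transcription factors named. Its level was 10.8 CPM in *stl* and 258.5 in *btl*, with 9.50 in WT and 7.31 and 12.4 in their siblings. *btl* stood far above the other 4 libraries, and *stl* lay among the normal ones. *stl* was 23.9-fold lower than *btl* (interval 20.0 to 28.9), which placed *msgn1* ninth from the lowest of all genes. Its log2 ratio was -4.52 between mutants, -0.72 between siblings and -3.73 with the trend over coding length, described further on, taken off.

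The other genes of presomitic and paraxial mesoderm went both ways. *her7*, a hairy-related repressor of the segmentation clock, was at 3.46 CPM in *stl* and 22.1 in *btl*, with 4.32 in WT and 3.37 and 4.66 in their siblings. As with *msgn1*, *btl* alone stood apart, and *stl* was 6.4-fold lower (interval 4.54 to 9.20). *her11*, another clock gene, had a log2 ratio of -1.53, with -0.56 between the siblings, and fell short of the line difference. It also passed the minimum of 2 CPM only through *btl*, and without *her11* the list had 3 lower genes of 19 and a median of 0.56. *tbx16* (*spt*), a T-box factor of mesoderm progenitors, was at 21.1 CPM in *stl* and 47.1 in *btl*, a log2 ratio of -1.14, and also fell short of it, with the siblings at 20.0 and 29.6 CPM.

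*tbx6*, a T-box factor of the anterior presomitic mesoderm, ran the other way. It was at 16.0 CPM in *stl* and 5.62 in *btl*, with 12.1 in WT and 12.9 and 18.3 in their siblings, 2.84-fold higher in *stl* (interval 2.05 to 3.99). *btl* was the lowest library and *stl* lay among the normal ones. *tcf15* (paraxis), a factor of epithelial somites, was 3.90-fold higher in *stl* (interval 2.24 to 7.29), from 83 reads against 15. *pax7a*, a dermomyotome factor, was 2.86-fold higher in *stl* (interval 2.12 to 3.92). Of the 20 genes of the list tested, 4 were at least 2-fold higher and 4 lower in *stl* (4.37% and 5.91% of all genes). Past the line difference were 3 and 2 (2.19% and 3.69% of all genes), and past the range of the normal libraries 1 and 2. The median of the list was 0.41. *foxc1a*, a forkhead factor of somites, was at 1.02 without passing the line difference, and *meox1*, a sclerotome and dermomyotome factor, was at 0.74.

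**Figure D2:**
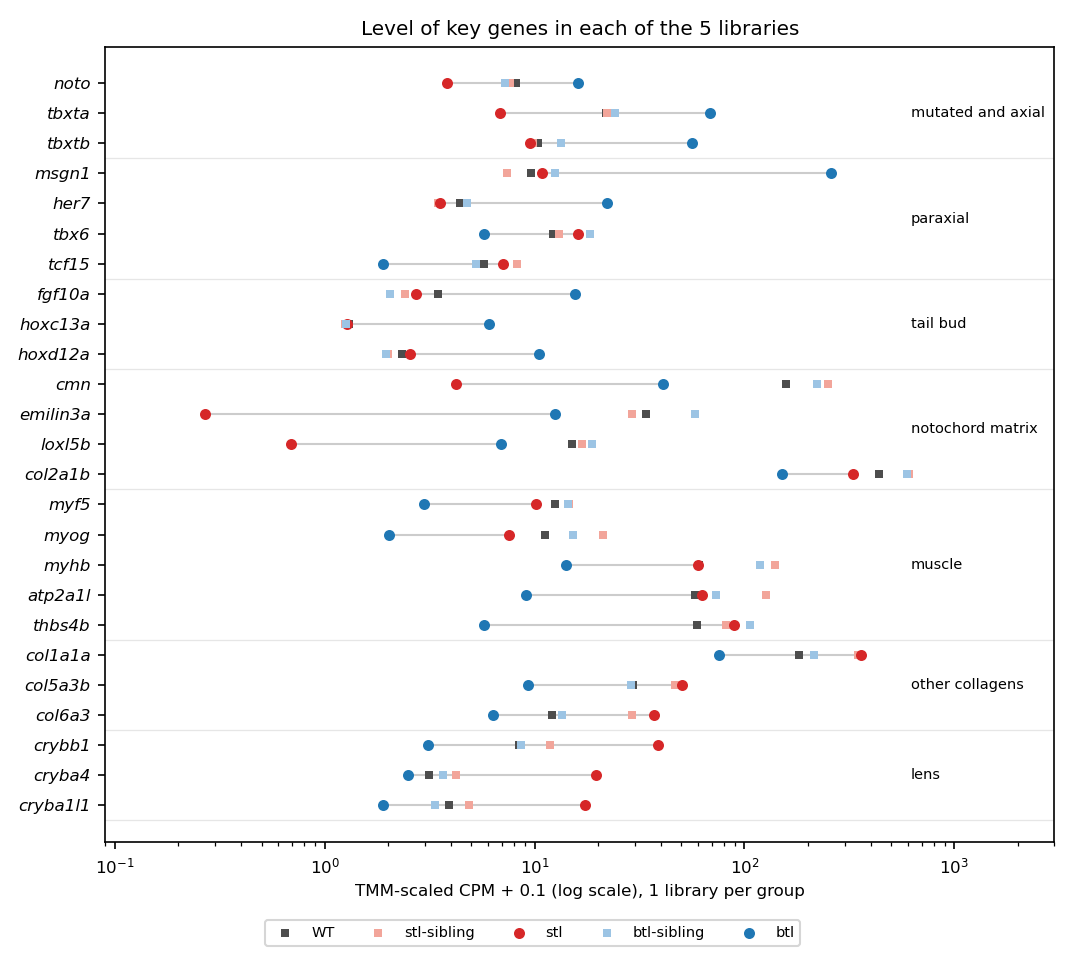
The TMM-scaled CPM of key genes are plotted on a log axis after adding 0.1, with 1 point for each of the 5 libraries, and a line joins *stl* and *btl*. In *msgn1*, *tbxtb* and *her7* only *btl* stands to the right of the rest, in *noto* and *tbxta* the mutants stand on opposite sides of the normal libraries, and in *cmn* both mutants stand to the left.

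Of 26 tail bud genes of the Wnt, FGF and BMP pathways tested, 0 were at least 2-fold higher in *stl* and 4 lower (4.37% and 5.91% of all genes). Of these 4, 2 were past the line difference, beside 3.69% of all genes, and 1 past the range of the normal libraries. The median of the 26 was -0.27. *fgf10a*, an FGF ligand, was at 2.62 CPM in *stl* and 15.4 in *btl*, with 3.37 in WT and 2.30 and 1.94 in their siblings. It was 5.90-fold lower in *stl* (interval 3.96 to 9.03), again with *btl* alone apart from the rest. *fgf3*, a further ligand, was 2.83-fold lower in *stl* (interval 1.84 to 4.45), from 33 reads against 66, and below 2-fold under TPM (-0.92). *cdx4*, a caudal homeobox factor of the posterior body, and *ved*, a ventral homeobox repressor, had log2 ratios of -1.46 and -1.79, but with -0.52 and -0.85 between the siblings neither was past the line difference. *fgf8a*, the ligand most used as a tail bud marker, was at 4.56 CPM in *stl* and 5.98 in *btl*, with an interval of 0.875 to 1.97 for the fold that includes no difference at this depth. *sox3*, a factor of neural progenitors, was at 158.4 CPM in *stl* and 125.7 in *btl*, a log2 ratio of 0.33 beside 0.30 between the siblings.

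The *hox* genes were set out by their paralogue group, which follows their order along the cluster and along the body axis. The 22 genes of groups 1 to 8 had a median log2 ratio of -0.02, between -0.99 and 0.89, and 12 of them were below 0. The 15 genes of groups 9 to 13 had a median of -0.89, and 14 of them were below 0, with *hoxc9a* at 0.07 as the exception and *hoxb9a* at -0.00. Between the siblings these medians were 0.16 and -0.09. In the posterior genes 5 were at least 2-fold lower in *stl* (5.91% of all genes), 3 past the line difference (3.69%) and 2 past the range of the normal libraries (1.22%). *hoxd12a* was at 2.45 CPM in *stl* and 10.4 in *btl*, with 2.25 in WT and 1.89 and 1.87 in their siblings, 4.25-fold lower in *stl* (interval 2.76 to 6.72). *hoxc13a*, from 14 reads in *stl* and 50 in *btl*, was 5.06-fold lower (interval 2.76 to 9.91). It passed the minimum of 2 CPM only through *btl*, with a mean of 1.18 CPM over the other 4 libraries, so a difference of *hoxc13a* was built into its selection. Without it, 13 of 14 posterior genes were below 0 with a median of -0.87, 4 were at least 2-fold lower, 2 past the line difference and *hoxd12a* alone past the range of the normal libraries. In *hoxd12a* and *hoxc13a* alike, *btl* was high and the other 4 libraries lay close together. *hoxc12a* was 2.44-fold lower (interval 1.70 to 3.53), while its siblings differed the other way (0.88). It was below 2-fold with the length trend taken off (-0.97) and under TPM (-0.73). With the trend over coding length taken off, the posterior median was -0.68 and 3 genes were still at least 2-fold lower.

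**Figure D3:**
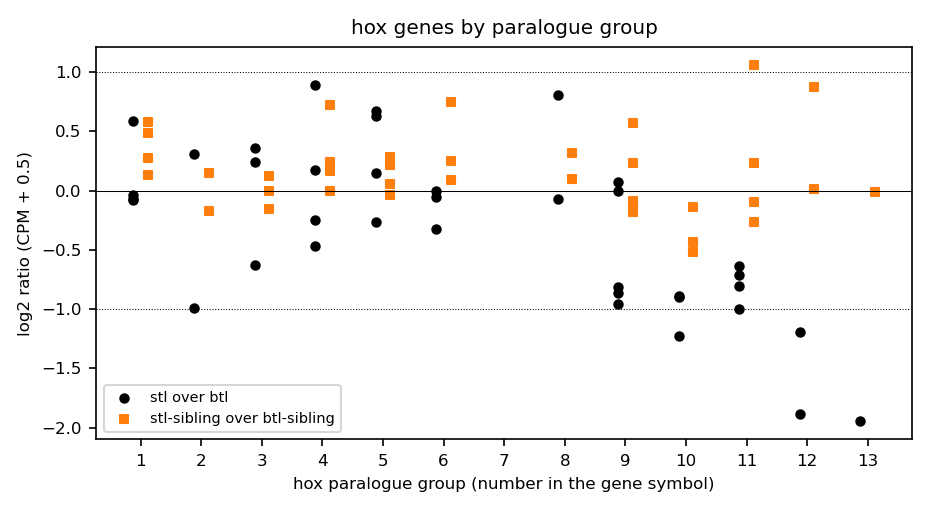
Each point is a *hox* gene, placed by its paralogue group on the horizontal axis, with its log2 ratio on the vertical axis for *stl* over *btl* (black) and for *stl*-sibling over *btl*-sibling (orange). The 15 genes of groups 9 to 13 have a median of -0.89 between the mutants and -0.09 between the siblings, and the 22 genes of groups 1 to 8 have a median of -0.02.

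Genes of the notochord sheath, the collagen-rich coat secreted around the notochord, were low in both mutants, and within the list a subset was far lower in *stl*. Of 22 genes tested, 5 were at least 2-fold lower in *stl* and 1 higher, all 6 past the line difference (3.69% and 2.19% of all genes). Their median was -0.01 between the mutants, while the medians against the own sibling were -1.69 in *stl* and -1.36 in *btl*. *cmn* (calymmin, a notochord sheath protein named from zebrafish) was at 4.13 CPM in *stl* and 41.0 in *btl*, with 157.4 in WT and 249.9 and 222.0 in their siblings. Both mutants lay below every normal library, and *stl* was a further 9.92-fold below *btl* (interval 7.34 to 13.7). *emilin3a*, a matrix glycoprotein of the notochord, had 2 reads in *stl* and 104 in *btl*, with 393 in WT and 351 and 749 in their siblings, and it was 73.7-fold lower in *stl* (interval 19.9 to 617). *loxl5b*, a lysyl oxidase that cross-links matrix, was 11.5-fold lower in *stl* (interval 5.25 to 29.99), from 7 reads against 57.

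*col8a1a*, a short-chain collagen, and *epyc*, a small leucine-rich proteoglycan, completed the lower group, with log2 ratios of -1.57 and -1.47. Other collagens of the list were below the siblings in both mutants and close to each other. *col2a1a*, a type II collagen, was at 48.9 CPM in *stl* and 47.7 in *btl*, with 426.4 and 346.0 in their siblings. *col9a3* was at 20.2 and 21.0, and *col11a2* at 9.45 and 8.85 CPM. *col9a1b*, the notochord marker of the study, was 1.86-fold lower in *stl*, a log2 ratio of -0.88 that did not reach 2-fold. It was past 2-fold with the length trend (-1.04) or the line difference (-1.26) taken off, while the alternatives reached up to -0.39. With the length trend taken off, the notochord sheath list held 6 genes at least 2-fold lower in *stl* and 0 higher, with a median of -0.28. *col2a1b* was the exception on the other side, at 329.2 CPM in *stl* and 150.7 in *btl*, with 437.2 in WT and 610.5 and 596.1 in their siblings. It was 2.19-fold higher in *stl* (interval 2.05 to 2.33), and with the length trend taken off its log2 ratio was 0.79. The 5 genes lower in *stl* were also past the range of the normal libraries, and *col2a1b* was not. A gene in no list, *zgc:113232*, annotated as a collagen alpha-1(II) chain, was 8.24-fold lower in *stl* (interval 5.45 to 12.9). Collagen genes are similar in sequence, so reads can be divided among them and their values are uncertain.

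The Hedgehog and midline list, with the signal that notochord and floor plate send to the neural tube and somites, was near the shares of all genes. Among 19 tested, 1 was at least 2-fold higher in *stl* (4.37% of all genes) and 0 past the line difference (2.19%). *shha*, the ligand, was at 10.8 CPM in *stl* and 13.3 in *btl*. *ptch1*, its receptor and target, was at 75.6 and 42.8 CPM, a log2 ratio of 0.81. The median was 0.43.

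The muscle lists had medians above that of all genes, with a minority of their members called. Against the own sibling, the median of each of these lists was negative in both mutants and lower in *btl*. *myf5*, a myogenic factor of muscle precursors, was at 10.04 CPM in *stl* and 2.87 in *btl*, with 12.4 in WT and 14.4 and 14.3 in their siblings. It was 3.50-fold higher in *stl* (interval 2.24 to 5.68), with *btl* below the other 4 libraries. *myog*, which drives differentiation, was at 7.42 CPM in *stl* and 1.91 in *btl*, with 11.1 in WT and 21.0 and 15.2 in their siblings. Both mutants were below the normal libraries for *myog*, *btl* the lower, and *stl* was 3.88-fold higher than *btl* (interval 2.26 to 7.08). Of the 11 myogenic regulators tested, these were the 2 called, beside 4.37% of all genes higher in *stl*. *myf5* was also past the range of the normal libraries, and the median of the list was 0.56.

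Of 39 sarcomere and chaperone genes, 14 were at least 2-fold higher in *stl* and 1 lower (4.37% and 5.91% of all genes). Only 4 and 1 were past the line difference (2.19% and 3.69% of all genes) and 0 past the range of the normal libraries. The median was 0.71 between the mutants and 0.43 between the siblings, and 0.20 with the line difference taken off. Sarcomere and chaperone genes were low in both mutants, with medians against the own sibling of -0.95 in *stl* and -1.17 in *btl*. *myhb*, a fast skeletal myosin heavy chain, was at 60.2 CPM in *stl* and 14 in *btl*, with 60.3 in WT and 139.5 and 118.0 in their siblings, so that *stl* lay at the level of WT and below its sibling. It was 4.30-fold higher in *stl* than in *btl* (interval 3.54 to 5.28). *neb* (nebulin) and *actn3b* (a fast-fibre actinin) were 3.74-fold and 3.67-fold higher, and *ttn.2* (titin) 2.30-fold. *ttn.2*, with a coding sequence of 85887 nucleotides, was below 2-fold with the length trend taken off (0.77) and under TPM (0.58). Relative to the median of all genes, the median of the sarcomere list was 0.70 with TMM factors and 0.21 under TPM. The member lower in *stl* was *tnnc1a*, the troponin C of slow and cardiac muscle, 2.47-fold lower (interval 1.98 to 3.11), with a log2 ratio of -0.77 once the length trend was taken off, short of 2-fold.

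*hsp90aa1.1*, the chaperone of myosin folding, was at 77.9 CPM in *stl* and 32.4 in *btl*, a log2 ratio of 1.25 beside 0.69 between the siblings. *hsp90aa1.2* was at 534.2 CPM in *stl* and 187.5 in *btl*, with 234.4 in WT and 168.3 and 54.7 in their siblings. The siblings of *hsp90aa1.2* were as far apart (1.61) as the mutants (1.51), and neither *hsp90aa* gene was past the line difference. These genes lie side by side on linkage group 19 and are similar in sequence, so the division of reads between them is uncertain.

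Of 22 genes of excitation coupling and muscle metabolism, 10 were at least 2-fold higher in *stl* and 0 lower (4.37% and 5.91% of all genes). Past the line difference were 4 (2.19% of all genes higher) and past the range of the normal libraries 2. The median was 0.87 beside 0.33 between the siblings, and 0.48 with the line difference taken off. Against the own sibling the medians were -0.81 in *stl* and -1.27 in *btl*. One member, *ckmt2a*, passed the minimum of 2 CPM only through *btl*. Without *ckmt2a*, 10 of 21 were at least 2-fold higher and the median was 0.88. *atp2a1l*, a calcium pump of the sarcoplasmic reticulum, was at 62.5 CPM in *stl* and 8.97 in *btl*, with 58.3 in WT and 125.9 and 73.4 in their siblings. *btl* was far below every other library, and *stl* was 6.97-fold higher (interval 5.49 to 8.96). *ckmb*, a muscle creatine kinase, was 4.51-fold higher in *stl* (interval 3.72 to 5.50). *ryr1b*, the calcium release channel, and *chrnb1*, a subunit of the acetylcholine receptor, were 2.61-fold and 3.11-fold higher. *ryr1b* was below 2-fold with the length trend taken off (0.89) and under TPM (0.81), and *chrnb1* with a pseudocount of 2 CPM (0.84).

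A search for a product name of a myosin heavy chain, made after the values were seen, found 8 tested genes, among them *myhb*. Product names came from the authors' comparisons of these same libraries and cover 3906 genes, so the selection is not independent of the differences. Of the 8, 7 were at least 2-fold higher in *stl* and past the line difference, and 5 past the range of the normal libraries. Over all genes 2.19% were higher in *stl* past the line difference, but given the selection the shares cannot be compared. The median of the 8 was 2.71 beside 0.62 between the siblings. *LOC108241321* (linkage group 12, 7952540 to 7960015) was at 194.7 CPM in *stl* and 14.2 in *btl*, with 113.0 in WT and 290.9 and 136.4 in their siblings, 13.7-fold higher in *stl* (interval 11.4 to 16.6). *LOC119617527* had 177 reads in *stl* and 2 in *btl*, a ratio of 54.3 (interval 17.0 to 520). Both lie within the same stretch of linkage group 12 as *LOC108229385* and *LOC108243721*, with log2 ratios of 3.95 and 2.97, and since such genes are nearly alike their single values are uncertain. *thbs4b* (thrombospondin-4-B, a matrix protein of muscle attachments in zebrafish; linkage group 14, 12537012 to 12553507) was at 89.2 CPM in *stl* and 5.62 in *btl*, with 59.3 in WT and 82.0 and 106.6 in their siblings. It was 15.9-fold higher in *stl* (interval 11.9 to 21.7) and past the range of the normal libraries. The level in *stl* lay among those of WT and the siblings, and *btl* alone was low.

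Collagens outside the notochord list were mostly higher in *stl*. Of 28 tested, 21 were at least 2-fold higher in *stl* and 0 lower (4.37% and 5.91% of all genes). Of the 21, 19 were past the line difference (2.19% of all genes) and 14 past the range of the normal libraries (0.853%). The median of the 28 was 1.505, beside 0.30 between the siblings and 0.01 for all genes. *col1a1a*, the main collagen of skin and bone, was at 358.1 CPM in *stl* and 75.3 in *btl*, with 180.8 in WT and 348.9 and 214.8 in their siblings. *stl* lay with its sibling and *btl* below all others, 4.76-fold apart (interval 4.38 to 5.19). *col5a3b*, a fibril-regulating collagen, was 5.49-fold higher in *stl* (interval 4.32 to 7.05). Of the type VI collagens, which form a microfibril network around muscle, *col6a3* was at 37.0 CPM in *stl* and 6.22 in *btl*, with 12 in WT and 28.9 and 13.4 in their siblings. *col6a3* and *col6a4a* were 5.94-fold and 6.42-fold higher in *stl*, with log2 ratios of 1.08 and 1.40 between the siblings. The basement membrane collagens *col4a1* and *col4a2* had log2 ratios of 1.28 and 1.27, and of 0.94 and 0.93 with the length trend taken off. Collagen coding sequences are long, with a median of 4962 nucleotides in this list, and with the length trend taken off the median was 1.16 and 17 genes were at least 2-fold higher. Like *zgc:113232* above, *si:dkey-21p1.3*, given as a collagen alpha-1(I) chain and in no list, ran the other way. *si:dkey-21p1.3* had 5 reads in *stl* and 235 in *btl* (66.6-fold lower, interval 28.1 to 207). It passed the minimum of 2 CPM only through *btl*, so a difference was built into its selection.

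Lens crystallins, the structural proteins that fill the lens fibre cells, stood apart in *stl*. Of 12 genes with a crystallin symbol tested, 9 were at least 2-fold higher in *stl* and 1 lower (4.37% and 5.91% of all genes). In all 9 *stl* was the highest of the 5 libraries. All 9 were past the line difference (2.19% of all genes) and the range of the normal libraries (0.853%). The median was 2.27, beside 0.44 between the siblings. *crybb1* (linkage group 14, 7544005 to 7549183) was at 38.8 CPM in *stl* and 2.99 in *btl*, with 8.29 in WT and 11.7 and 8.55 in their siblings. *stl* was above and *btl* below the normal libraries, 12.98-fold apart (interval 8.68 to 20.3). *cryba4* was at 19.5 CPM in *stl* and 2.39 in *btl*, with 3.02 in WT and 4.11 and 3.58 in their siblings, 8.16-fold higher (interval 5.16 to 13.6), with *stl* alone well apart. *cryba1l1* and *cryba1b* were 9.64-fold and 7.65-fold higher.

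The crystallin lower in *stl* was *crybb2*, at 1.60 CPM in *stl* and 5.86 in *btl*, without passing the line difference, and *crybg1a* and *crybg2*, whose products are not confined to the lens, had log2 ratios of -0.54 and 0.83. Of the genes in no list, a pair annotated as gamma-crystallin M2-like on linkage group 11 was among the 15 highest genes past the line difference. The pair was picked for this difference, so it adds no support to the result of the list. Its annotation comes from the authors' comparisons of these same libraries, and product names were not searched for other crystallins. *LOC108251161* had 309 reads in *stl* and 7 in *btl* (31.9-fold, interval 14.9 to 78.1), and *LOC108251162* had 231 and 21 (7.68-fold, interval 4.96 to 12.8). *LOC108251162*, with 0 reads in WT, passed the minimum of 2 CPM only through *stl*, so a difference was built into its selection. Unlike *LOC108251161*, it was not past the range of the normal libraries. The coding sequences of the listed crystallins are short, with a median of 628.5 nucleotides, and taking the length trend off raised their median to 2.66.

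Markers of other tissues lay on both sides. Of 12 heart genes, 4 were at least 2-fold lower in *stl* (5.91% of all genes), 3 past the line difference (3.69%) and 1 past the range of the normal libraries (1.22%). Their median was -0.79. *myl7*, a cardiac myosin light chain, was at 37.7 CPM in *stl* and 113.6 in *btl*, with 55.3 in WT and 48.6 and 41.2 in their siblings, 3.01-fold lower in *stl* (interval 2.69 to 3.38). The other 2 past the line difference, *tnni1a* and *tnnt2a*, are troponin subunits, with log2 ratios of -1.37 and -1.01. With the length trend taken off, *myl7* was at -1.08, and *tnni1a* and *tnnt2a* were below 2-fold at -0.87 and -0.79.

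The 18 genes of endoderm, liver and yolk layer had a median of -0.76, with 1 past the line difference, beside 3.69% of all genes lower in *stl*. It was *apoa2*, an apolipoprotein, at 2726 CPM in *stl* and 5776 in *btl*. Its log2 ratio of -1.08 was -0.30 with the length trend taken off, which ends the call. *prox1a*, at 1.47 without passing the line difference, passed the minimum of 2 CPM only through *stl*. Without *prox1a* the median was -0.77 over 17 genes, and 0 were at least 2-fold higher. *fabp10a*, the liver fatty acid-binding protein, is in no list. It was at 18.2 CPM in *stl* and 272.3 in *btl*, with 122.9 in WT and 20.0 and 72.1 in their siblings, 14.9-fold lower in *stl*, but with a log2 ratio of -1.83 between the siblings. Of 14 blood genes 1 was past the line difference, beside 3.69% of all genes lower in *stl*. It was *hbae5*, an embryonic alpha globin, at 53.5 CPM in *stl* and 154.2 in *btl*, with WT at 158.6. The median of the blood list was -0.31. Taking the length trend off moved *hbae5* from -1.52 to -0.73 and left 0 blood genes called.

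In the epidermis list 2 of 15 genes were past the line difference, beside 2.19% of all genes higher in *stl*. They were *evpla* (envoplakin) and *ppl* (periplakin), 2.55-fold and 2.17-fold higher in *stl*. With the length trend taken off, 0 epidermis genes were at least 2-fold apart. *elavl3*, a neuronal RNA-binding protein, was 2.68-fold higher in *stl* (interval 2.23 to 3.25). It was the only one past the line difference of 33 genes of the CNS, near the share of all genes (2.19%). The median of the CNS list was 0.41. Of 18 pigment and neural crest genes, 7 were at least 2-fold higher in *stl* (4.37% of all genes), but 1 was past the line difference (2.19%). This was *ltk*, a receptor kinase of iridophores, 2.97-fold higher (interval 2.15 to 4.18). The melanin genes were as far apart between the siblings as between the mutants. *oca2*, a melanosome transporter, had log2 ratios of 2.02 and 2.05, and *tyr* (tyrosinase) 1.35 and 1.35, in the order of mutants and siblings. In these lists 0 genes were past the range of the normal libraries. The lists for vessel endothelium, pronephros, hatching gland and p53 and stress response held 0 genes past the line difference, with medians of 0.50, 0.47, -0.39 and -0.10. Among 26 cell cycle genes 1 was past it, near the 3.69% of all genes lower in *stl*. This was *gmnn* (geminin, an inhibitor of replication licensing), at -1.09, and the median of the list was 0.30. With the length trend taken off *gmnn* was at -0.76 and 0 genes of the list were called.

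**Figure D4:**
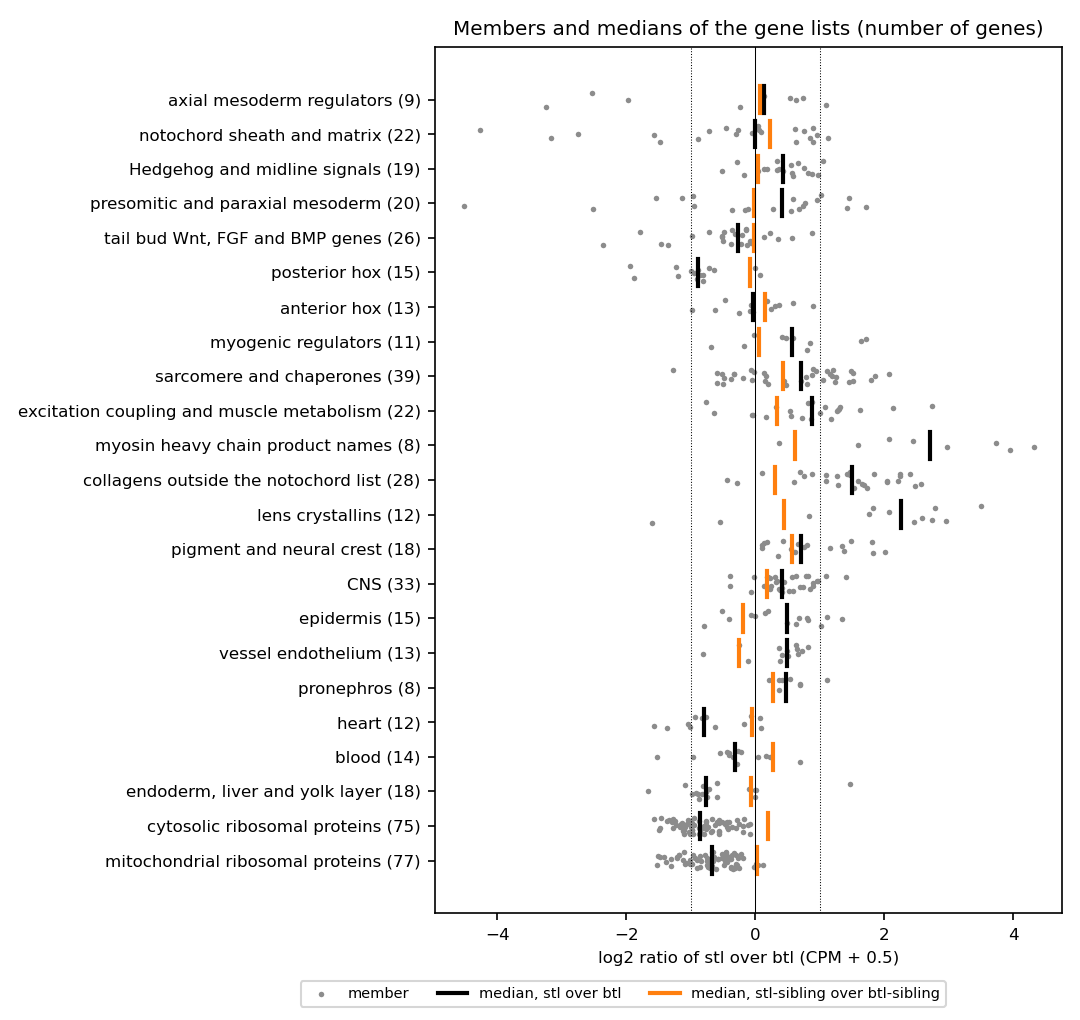
Each grey point is a gene placed by its log2 ratio of *stl* over *btl*, grouped by list, with the median of the mutants in black and that of the siblings in orange. The lens crystallins (median 2.27), the myosin heavy chains (2.71) and the collagens outside the notochord list (1.505) lie to the right, and the posterior *hox* genes (-0.89), heart (-0.79) and ribosomal proteins (-0.86 and -0.68) to the left. The myosin heavy chains were found through product names in the authors' comparisons of these same libraries, so their selection is not independent of the differences.

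Ribosomal protein genes were lower in *stl* as a whole list. All 75 cytosolic ribosomal protein genes had a log2 ratio below 0. Of them 26 were at least 2-fold lower and past the line difference (3.69% of all genes), and 3 past the range of the normal libraries (1.22%). The median was -0.86, beside 0.19 between the siblings. *rplp2*, a protein of the ribosomal stalk, was at 290.3 CPM in *stl* and 861.8 in *btl*, with 420.1 in WT and 319.7 and 268.3 in their siblings, 2.97-fold lower in *stl* (interval 2.85 to 3.09). *btl* alone was high, and *stl* lay among the normal libraries. *rps21*, *rpl30* and *rps27.1* had log2 ratios of -1.497, -1.48 and -1.46. The summed level of the list was 98730 CPM in *stl* and 171300 in *btl*, and between 89400 and 108500 in the 3 normal libraries. Of 77 mitochondrial ribosomal protein genes, 17 were at least 2-fold lower (5.91% of all genes), 16 past the line difference (3.69%) and 5 past the range of the normal libraries (1.22%). Their median was -0.68. *mrpl57* was 2.94-fold lower in *stl* (interval 2.43 to 3.56), and *mrpl33*, *mrpl52* and *mrpl30* had log2 ratios of -1.51, -1.48 and -1.41.

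These genes are short, and over all genes the ratio between the mutants went with coding length. Spearman's rho of the log2 ratio with length was 0.44 between the mutants and -0.15 between the siblings, a description across 15362 genes that share libraries and are not replicates. In the lowest decile of coding length (114 to 594 nucleotides) the median was -0.63, and 19.5% of them were past the line difference and lower in *stl*, beside 3.69% of all genes. In the highest decile (3842 to 88038 nucleotides) the median was 0.37, and 7.29% were past the line difference and higher in *stl*, beside 2.19% of all genes. With the median of each of 20 length bins taken off, 613 genes were at least 2-fold higher in *stl* (3.99%) and 543 lower (3.53%), and 276 and 214 were past the line difference. The medians of the ribosomal lists were then -0.25 and -0.25, with 0 genes at least 2-fold apart in either. Of the 88 named genes at least 2-fold apart, 67 were still so. What the length trend stems from was not tested.

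**Figure D5:**
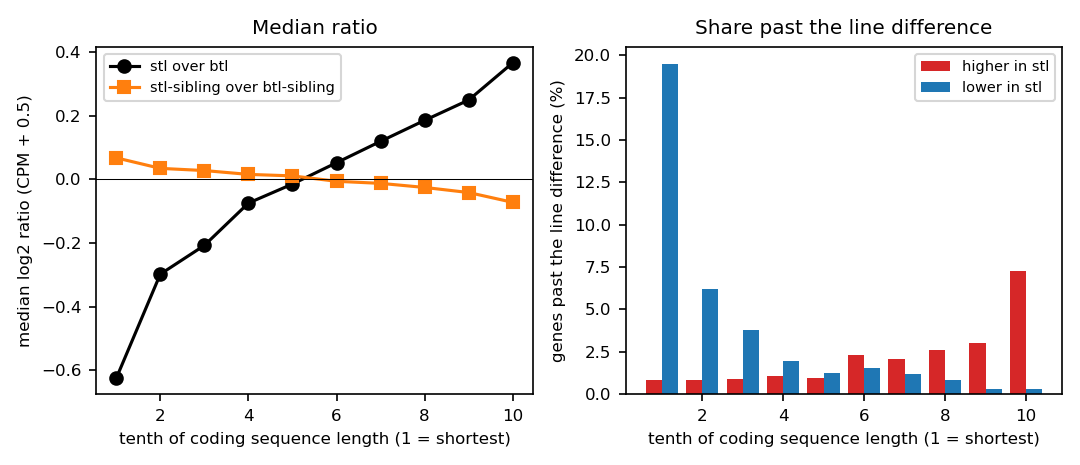
Genes are divided into deciles by coding sequence length, from the shortest (1) to the longest (10). The left panel shows the median log2 ratio of *stl* over *btl* (black, from -0.63 to 0.37) and of the siblings (orange), and the right panel the percentage of genes past the line difference in each direction.

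The remaining genes with the largest differences have no list. Lowest was *LOC112451230*, annotated as leishmanolysin-like peptidase 2, with 5 reads in *stl* and 981 in *btl* (278-fold, interval 119 to 858). Its siblings had 8 and 705 reads and WT had 250, so that most of this difference was also present between the normal embryos of the lines, with a log2 ratio of -5.58. *plcd4a*, a phospholipase C, had 1 read in *stl*, 1 in each sibling library, 8 in WT and 124 in *btl*, a ratio of *btl* over *stl* of 176 (interval 31.0 to 6996). With at most 0.69 CPM outside *btl*, *plcd4a* passed the minimum of 2 CPM only through *btl*, so a difference was built into its selection. *slc38a8b*, an amino acid transporter, had 3 reads in *stl* and 136 in *btl*, with 126 in WT and 139 and 115 in their siblings. Here *stl* alone was low, with a ratio of *btl* over *stl* of 64.3 (interval 21.5 to 315). *LOC108232862*, annotated as anti-dorsalizing morphogenic protein, a BMP-type ligand, was 8.92-fold lower in *stl* (interval 5.32 to 15.9), and *LOC108239880*, a keratin of type II, was 14.04-fold lower (interval 7.55 to 29.0) while both mutants lay below their siblings. *LOC108233214* and *LOC108246194*, both uncharacterized, had log2 ratios of -3.48 and -2.77, with 0.36 and -1.41 between the siblings.

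On the other side, *LOC108250191*, annotated as immunoglobulin superfamily DCC subclass member 3, had 309 reads in *stl*, 0 in WT, 8 in *stl*-sibling, 6 in *btl*-sibling and 9 in *btl* (24.2-fold higher in *stl*, interval 12.6 to 53.5). *stl* alone was high, but with at most 1.08 CPM outside *stl* this gene passed the minimum of 2 CPM only through *stl*. A difference was thus built into its selection. *LOC108234230*, annotated as matrilin-2, an adaptor protein of the matrix, had 116 reads in *stl* and 7 in *btl*, 11.7-fold higher (interval 5.50 to 29.7), with *btl* alone low. *LOC108244037*, annotated as mucin-19, was at 352.7 CPM in *stl* and 52.2 in *btl*, 6.75-fold higher (interval 6.12 to 7.47), and at 319.2 and 159.0 in the siblings.

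The largest differences of all were differences between the lines. *LOC108249405*, annotated as a nattectin-like lectin, had 34687 reads in *stl* and 3 in *btl* and was the highest gene, at a log2 ratio of 11.72, but its siblings had 37106 and 12 reads, a ratio of 11.04. *LOC108251661* had 1513 and 1438 reads in *stl* and its sibling and 0 in WT and both *btl* libraries. It was 356-fold higher in *stl* with *btl* set to the floor of 3 reads, and the lower limit of its interval was 289. *LOC108228815*, a ferritin subunit, was at 117.6 and 124.6 CPM in *stl* and *stl*-sibling, with 0 reads in *btl*. *si:ch211-106h4.4* and *LOC119617331* were the reverse, at 63.5 and 40.4 CPM in *btl* and 47.0 and 31.5 in *btl*-sibling, with at most 3 reads in the *stl* libraries. By contrast, *hunk*, a kinase, was at 2.87 CPM in *stl* and 0.24 in *btl* although the siblings were at 2.14 and 5.21. *LOC108228978* and *LOC108242670*, a glucose transporter, were likewise higher in *stl* by log2 ratios of 1.27 and 1.47 with siblings at -1.22 and -1.37, and *LOC108237682* and *si:dkey-27i16.2* were lower by -1.71 and -1.45 with siblings at 1.06 and 1.0. With a pseudocount of 2 CPM, *LOC108242670*, *LOC108237682* and *si:dkey-27i16.2* were below 2-fold. *si:dkey-27i16.2* also passed the minimum of 2 CPM only through *btl*, so a difference was built into its selection.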

How the data were processed

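RNA-seq was read from 5 libraries of pooled whole embryos, 1 per group. The labels name TRI reagent and a TruSeq kit, the methods of the study a column kit and a directional protocol. The authors trimmed paired reads and quantified them against the coding sequences of ASM164957v2 with Salmon 1.5.0, and deposited an expected count (not scaled) and a TPM for each of 37181 coding sequences in each library. The authors also deposited a joined count table, RPKM values and NOISeq comparisons with ratios, differences and probabilities, of which only the product names were used.

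Protein accessions in the RefSeq annotation of ASM164957v2 placed 37146 of the coding sequences on 22090 genes, for which counts were summed. Reads of the 35 unassigned were at most 0.000785% of a library. CPM used the TMM factors of edgeR 4.0.16 (R 4.3.3). Further steps used Python 3.11.15, numpy 2.4.6, pandas 2.3.3, scipy 1.17.1 and matplotlib 3.10.9. A mean of 2 CPM over the libraries was required, and 0.5 CPM was added before log2 ratios. A count of 0 was set to a floor of 3 reads for a fold. Smaller counts were kept as they are, so that their interval shows the counting error. No test across genes was run, since each group has 1 library. Counting and intervals were tested on simulated data.

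Named were *noto* and *msgn1*, the *in situ* markers of the study, the 15 highest and 15 lowest genes past the line difference with at least 50 reads, up to 4 such members per list and direction, the 5 largest line differences, and up to 5 genes against the line difference. Further list members are named as examples. Members and 28 lists were chosen with earlier results of these data known. Lists for collagens, crystallins, ribosomal and heat shock proteins were matched by symbol after seeing the files, because product names cover 3906 genes. Alternatives were library size, DESeq2 1.42.0 size factors, TPM, pseudocounts of 0.1 and 2 CPM, other filters, single coding sequences, 4-fold, the length trend or line difference taken off and, added after seeing the data, the range of the normal libraries.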

Additional observations from a re-analysis of the deposited data

Results flagged for a closer look

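Among the named genes, 3 lay at least 2-fold away from their own sibling library in opposite directions in the mutants. With 1 library per group these differences were not tested. The named genes were chosen in part for a large difference between the mutants, so such cases are partly selected for. Of all 903 genes past the line difference, 2 were up in *stl* and down in *btl*, and 2 the reverse. For the collagen-annotated gene *si:dkey-21p1.3* the log2 ratio to the sibling was -1.37 in *stl* and 3.08 in *btl*, a difference of -4.46. This gene passed the minimum of 2 CPM only through *btl*, so a high value in *btl* was built into its selection. For *tbxta* these values were -1.64 and 1.49, a difference of -3.13. For *crybb1* they were 1.69 and -1.38, a difference of 3.07.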

How the results depend on the processing

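No paired analysis was possible because each group has 1 library and the labels give no replicate numbers shared between groups. Depth limits the low genes most, and the *btl* library is the shallowest. The numbers of genes higher and lower in *stl*, of those past the line difference in the same order, and of genes apart between the siblings, were 672, 908, 336, 567 and 325.

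Library size alone gave 581 lower, and 603 and 310 past the line difference. TPM gave 1845 and 231, and 1373 and 71. A pseudocount of 2 CPM gave 428 higher, 189 higher past the line difference and 184 for the siblings. Without a filter the siblings differed in 558. A minimum of 10 CPM gave 331, 563, 187, 377 and 111 of 10604 genes. Single coding sequences gave 1945, 1860, 1371, 1246 and 2052 of 19201 sequences. A 4-fold threshold gave 83, 70, 22, 22 and 77. With the length trend taken off, 543 were lower and 214 lower past the line difference. The range of the normal libraries left 131 and 188. The other alternatives were within 1.5 times. The minimum of 10 CPM left fewer genes to test, and the 4-fold threshold and the range of the normal libraries were stricter rules. Under library size alone and TPM the median of all genes was 0.18 and 0.46. What else moved these counts was not tested.

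Of the 88 named genes at least 2-fold apart, 84 were still so with library size alone and 73 with TPM. With a pseudocount of 2 CPM 82 were, and with the length trend taken off 67. All 88 kept their direction under these settings, but a pseudocount cannot change it. Genes chosen for a large difference also seldom change direction under a shift of the scaling. With the line difference taken off, 1 of them changed sign, *hsp90aa1.2*, to -0.10. Without centring, TPM moved the notochord sheath and posterior *hox* medians to 0.40 and -0.43. It also turned the medians of the tail bud, blood, hatching gland and p53 lists positive, at 0.19, 0.17, 0.10 and 0.38. The same held for all *hox* genes and for the anterior *hox* list, at 0.21 and 0.42. The medians of the heart, endoderm and ribosomal lists stayed negative.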
